A study of Mus musculus with 6 samples.

Results

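The MHC class I antigen presentation genes are 10 named genes: the class I heavy chains H2-K1 and H2-D1, the light chain B2m, the peptide transporter genes Tap1 and Tap2, the loading factor Tapbp, the immunoproteasome subunits Psmb8, Psmb9 and Psmb10, and the transactivator Nlrc5. They were chosen by symbol, and all 10 were found among the 23420 genes of the count table. RNA sequencing was done on 6 libraries of mouse embryonic fibroblasts of a mixed 129/Sv-C57BL/6 strain. All 6 libraries, controls included, derived from cells transformed with E1A, an adenoviral oncogene, and HrasG12V, an activated Ras gene. The cells recovered for 24 h at 5% oxygen before harvest. There were 3 lines, and each gave 1 library with wild-type p53, under a guide with no target (sgNTC), and 1 with a guide against p53, listed as sgp53(1) and called sgp53 here. For p53 the labels give the sgp53 cells as null in lines 1 and 3 but as functionally inactive in line 2. Lines 2 and 3 also share a sample number that line 1 lacks, and what it marks is not stated. Whether the lines stem from separate embryos, and whether the sgp53 cells were clones, is not in the labels, so p-values measure the spread between these libraries only. Below, per-library values are in the order of lines 1, 2 and 3.

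Class I molecules show peptides from inside the cell to CD8 T cells. The proteasome cuts cytosolic proteins into peptides, the Tap1-Tap2 transporter carries them into the endoplasmic reticulum, and Tapbp (tapasin) holds empty heavy chains with B2m at the transporter until a peptide binds. Interferons raise the transcription of these genes through factors such as Irf1 and Nlrc5 and replace 3 catalytic proteasome subunits with the immunoproteasome subunits. E1A proteins of some adenovirus types are known to lower class I expression, and Tap1 is known as a target of p53 in other cells.

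Of the 10 members, 7 lie in the MHC region of chromosome 17. The exceptions are B2m on chromosome 2 and Psmb10 and Nlrc5 on chromosome 8. RefSeq promoter windows of 300 bases (250 before and 50 after a start site, GRCm38.p6) were found for 8 of the 10 members; Tap2 and Nlrc5 had none. Both strands were searched for an ISRE-type motif (GAAANNGAA, the type bound by interferon-activated factors), a GAS-type motif (TTCNNNGAA, named for interferon-gamma activated sites), a kappaB-type motif (GGGNNTTCC) and the CCAAT box (CCAAT). A match is a match of letters only, and a site that departs from these letters is not found, so no match does not mean no site. The windows below are shown because they hold the classical class I upstream region (H2-K1, H2-D1), the matches to interferon-type motifs (B2m, Psmb8) and the stretch that Tap1 shares with Psmb9. Capitals mark ISRE-type, GAS-type and kappaB-type matches, and all are written 5′ to 3′ on the strand of the gene.
H2-K1: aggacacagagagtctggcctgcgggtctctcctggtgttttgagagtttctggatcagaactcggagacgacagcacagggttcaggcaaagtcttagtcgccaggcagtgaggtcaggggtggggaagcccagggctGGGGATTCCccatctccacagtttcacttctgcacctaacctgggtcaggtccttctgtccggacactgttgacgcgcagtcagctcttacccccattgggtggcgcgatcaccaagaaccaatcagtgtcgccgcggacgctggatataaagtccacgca
H2-D1: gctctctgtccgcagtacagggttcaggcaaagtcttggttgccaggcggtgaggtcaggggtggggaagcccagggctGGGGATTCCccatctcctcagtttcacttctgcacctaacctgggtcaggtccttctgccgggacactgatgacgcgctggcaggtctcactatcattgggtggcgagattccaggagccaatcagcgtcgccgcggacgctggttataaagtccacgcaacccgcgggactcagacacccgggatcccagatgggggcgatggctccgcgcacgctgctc
B2m: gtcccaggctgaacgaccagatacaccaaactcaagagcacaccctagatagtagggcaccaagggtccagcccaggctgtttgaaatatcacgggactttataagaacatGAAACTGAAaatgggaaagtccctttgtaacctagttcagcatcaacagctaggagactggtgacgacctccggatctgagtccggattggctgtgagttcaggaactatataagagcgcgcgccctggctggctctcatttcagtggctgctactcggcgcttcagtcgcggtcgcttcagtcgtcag
Tap1: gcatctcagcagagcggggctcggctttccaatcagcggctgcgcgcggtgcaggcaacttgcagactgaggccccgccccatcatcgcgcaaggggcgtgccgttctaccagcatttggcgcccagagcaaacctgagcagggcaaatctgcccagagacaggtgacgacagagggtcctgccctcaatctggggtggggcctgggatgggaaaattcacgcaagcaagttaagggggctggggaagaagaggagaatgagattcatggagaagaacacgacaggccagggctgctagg
Psmb8: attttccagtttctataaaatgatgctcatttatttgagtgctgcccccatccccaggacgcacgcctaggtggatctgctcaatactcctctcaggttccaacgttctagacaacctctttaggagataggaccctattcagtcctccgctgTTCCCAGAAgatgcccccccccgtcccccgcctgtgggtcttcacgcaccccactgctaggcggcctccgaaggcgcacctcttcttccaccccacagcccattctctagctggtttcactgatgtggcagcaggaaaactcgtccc

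These windows are chr17:34000298-34000597 on the minus strand for H2-K1 and, on the plus strand, chr17:35262844-35263143 for H2-D1, chr2:122147437-122147736 for B2m, chr17:34187306-34187605 for Tap1 and chr17:34197945-34198244 for Psmb8. The H2-K1 and H2-D1 windows were identical at 211 of 239 aligned bases (88.3%), and both held the same kappaB-type match, at -111 to -103 in H2-K1 and -171 to -163 in H2-D1 relative to the start. A kappaB-type match stood in 5.82% of all 32851 promoter windows. The B2m window held an ISRE-type match at -139 to -131 (8.56% of all windows), and the Psmb8 window a GAS-type match at -97 to -89 (8.30% of all windows). The CCAAT box matched in 6 of the 8 members with a window and in 37.4% of all windows. These 6 are not separate, since the match in Tap1 (-222 to -218) and that in Psmb9 (-8 to -4) are the same bases. Tap1 and Psmb9 are read in opposite directions from starts with 225 bases between them, and 275 bases of the Tap1 window are also in the Psmb9 window. The p53 binding decamer, searched after the Tap1 values were seen, matched in 0 of the 8 members and in 8.36% of all windows.

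Library totals were 27503577 to 35860866 counts. As a check of the labels, Trp53 was at 206 to 277 CPM (read counts scaled to a common normalized library total) in sgNTC and 71.1 to 113 CPM in sgp53, and Trp53 with its targets Cdkn1a, Mdm2 and Ccng1 were all called lower by edgeR. The Trp53 call was lost without sgNTC line 3, sgp53 line 1 or sgp53 line 2 (edgeR adjusted p = 0.0507 to 0.0721) and without any 1 line (0.0731 to 0.112), and the Ccng1 call without line 3 (0.0618). Of 10 fibroblast markers, all had counts, with Vim at 2502 to 3354 CPM (edgeR log2 fold change -0.22, adjusted p = 0.226). Of the 10, edgeR called only Col1a1, Col1a2, Col3a1 and Fap, all higher. Log2 fold changes of these genes were 5.68, 5.16, 4.13 and 3.08 (edgeR adjusted p = 0.00728 to 0.0380). Col1a1 was at 12.6, 5.18 and 8.91 CPM in sgNTC and 412, 221 and 744 CPM in sgp53. The Fap call was lost with the line as a block (edgeR adjusted p = 0.0825). With limma-voom the Col3a1 and Fap calls were lost (adjusted p = 0.0569 and 0.0615). The 10 fibroblast markers summed to 5541 to 6617 CPM in sgNTC and 6979 to 9792 CPM in sgp53. Leukocytes, which express much class I, were near absent: 8 markers summed to 0.145 to 1.71 CPM in sgNTC and 0.526 to 0.751 CPM in sgp53, with Emr1 and Cd3e at 0 in every library. The 4 endothelial markers summed to 1.64 to 2.65 CPM over the 6 libraries. The 6 epithelial markers summed to 259 to 646 CPM in sgNTC and 88.7 to 132 CPM in sgp53, with Krt5 at 0. Most of this sum was Krt18, at 185 to 542 CPM in sgNTC and 47.4 to 93.3 CPM in sgp53. EdgeR called Krt18 lower (log2 fold change -2.64, adjusted p = 0.0295), but not with the line as a block (0.0534). Epcam was at 54.1 to 100 and 25.5 to 41.0 CPM (edgeR adjusted p = 0.0528). Cdh1 did not fall, at 2.57 to 4.24 and 2.74 to 5.17 CPM (edgeR log2 fold change 0.10, adjusted p = 0.863). Krt8 overlapped between the groups, at 0.610 to 2.28 and 0.512 to 1.19 CPM (edgeR adjusted p = 0.405). The part of these marker shifts in the class I values was not tested.

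Between sgp53 and sgNTC, edgeR called 0 of the 10 members at an adjusted p under 0.05 over all 13044 tested genes, of which 841 (6.45%) were called. At an unadjusted p under 0.05 there were 2 (29.0% of all tested genes were), Tap1 (lower) and Psmb10 (higher), and DESeq2 called these 2, against 17.3% of all genes in its test. The sgp53 and sgNTC levels did not overlap in the same 2 genes, against 36.8% of all tested genes. The members' counts thus did not stand out from these shares. Limma-voom called 0, and edgeR with the line as a block called 0. Median log2 fold change of the members was 0.10, against -0.01 over all genes tested, with 6 positive and 4 negative values. Without sgp53 line 2 the median was -0.06, with 4 positive and 6 negative. In these bulk libraries, fewer cells that express a gene and less RNA per cell cannot be told apart.

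**Figure D1:**
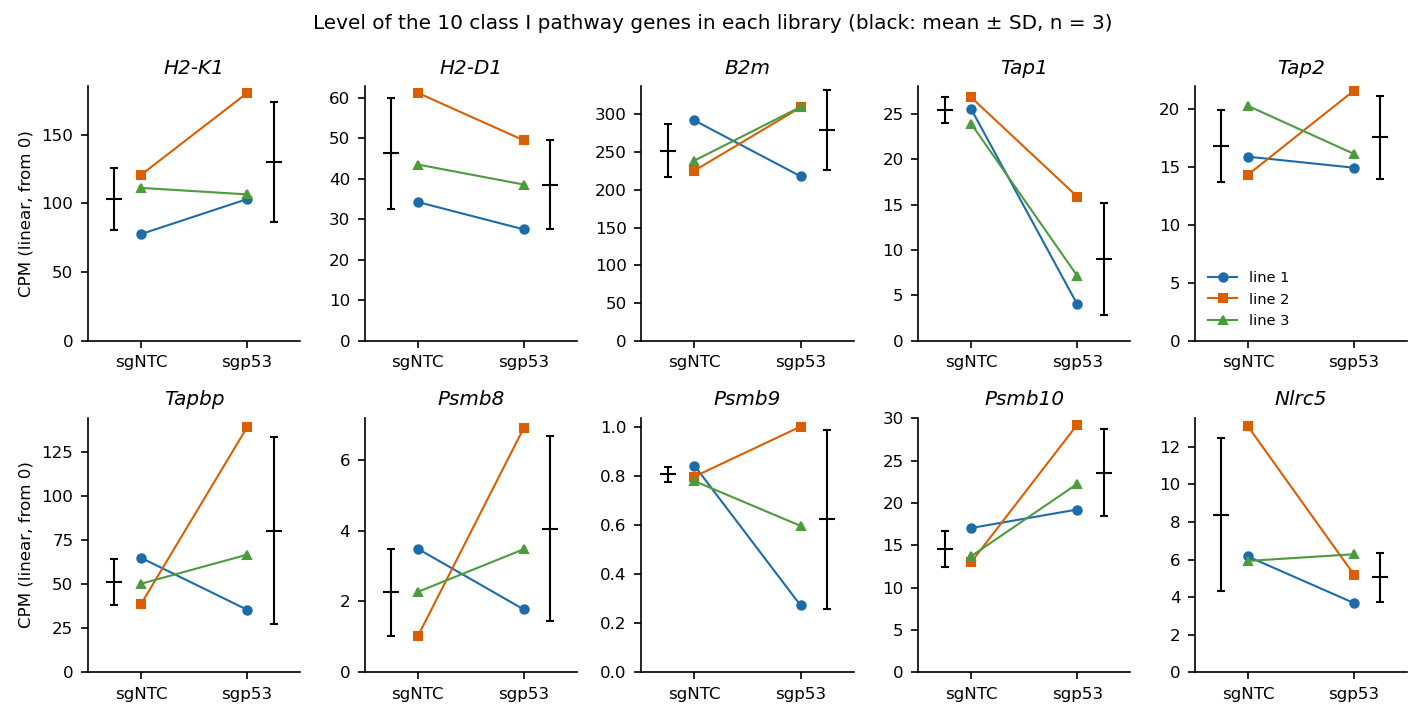
Each panel plots 1 gene in CPM on a linear axis from 0, with a point per library, a line joining the sgNTC and sgp53 libraries of a line, and the group mean ± SD (n = 3) in black. Tap1 was lower and Psmb10 higher in each sgp53 library than in every sgNTC library, while the groups overlapped in the other 8 panels.

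Tap1 (chromosome 17, 34187556 to 34197225), which makes the first subunit of the peptide transporter, had the member list's largest difference between the guides. It reached 25.5, 26.8 and 23.9 CPM with sgNTC against 4.03, 15.9 and 7.16 CPM with sgp53. The sgNTC libraries lay within a narrow range, and all 3 sgp53 libraries were below it. The means were 25.4 ± 1.45 and 9.02 ± 6.14 CPM (SD, n = 3 each). The log2 fold change was -1.49 (SE 0.46), with an adjusted p of 0.097 by edgeR, which did not pass the threshold. Within lines 1, 2 and 3 the log2 difference was -2.64, -0.75 and -1.73. DESeq2 called Tap1 lower (adjusted p = 0.00558), as did edgeR without sgp53 line 2 (log2 fold change -2.18, adjusted p = 0.0352), and over all alternatives the adjusted p ran from 0.00558 to 0.368.

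Tap2 (chromosome 17, 34204479 to 34216321), the partner subunit, was at 15.9, 14.3 and 20.25 CPM with sgNTC against 14.9, 21.6 and 16.1 CPM in sgp53. The groups overlapped, with means of 16.8 ± 3.08 and 17.5 ± 3.55 CPM and a log2 fold change of 0.06 (SE 0.19), with an adjusted p of 0.858 by edgeR. Its sign turned without sgNTC line 2 (-0.04), without sgp53 line 2 (-0.11) and without line 2 (-0.21). Per kb of exon the ratio of Tap1 to Tap2 was 1.11, 1.29 and 0.814 with sgNTC against 0.186, 0.508 and 0.307 in sgp53. The ratio was thus lower in every sgp53 library than in every sgNTC library. It was chosen after the values of Tap1 were seen and has no test.

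Psmb9 (chromosome 17, 34182030 to 34187330), the immunoproteasome subunit that shares the Tap1 promoter stretch, was the member of lowest level. It had 28, 22 and 23 counts with sgNTC against 8, 36 and 17 counts in sgp53, or 0.842, 0.797 and 0.779 CPM and 0.273, 1.00 and 0.597 CPM. Sgp53 line 1 was lowest and sgp53 line 2 highest, and the group means of 0.806 ± 0.0323 and 0.623 ± 0.364 CPM differed by less than the sgp53 spread (log2 fold change -0.36 with SE 0.46, adjusted p by edgeR = 0.646). The sign turned without line 1 (0.03). Tap1 exceeded Psmb9 30.3, 33.6 and 30.7 times in counts in sgNTC and 14.75, 15.9 and 12.0 times in sgp53, a ratio chosen after the values were seen and with no test. In GENCODE the transcripts of the pair overlap on opposite strands by 212 bases, and the strand setting of the counting is not given in the sources used here.

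Psmb8 (chromosome 17, 34198195 to 34201454) and Psmb10 (chromosome 8, 105935728 to 105938392) make the other inducible catalytic subunits. Psmb8 was at 3.49, 1.01 and 2.27 CPM with sgNTC against 1.78, 6.89 and 3.47 CPM in sgp53. Line 2 held both the lowest and the highest value, and the groups overlapped (means 2.26 ± 1.24 and 4.05 ± 2.61 CPM, log2 fold change 0.84 with SE 0.61, adjusted p by edgeR = 0.397). Its sign turned without line 2 (-0.12). Psmb10 was at 17.0, 13.0 and 13.7 CPM in sgNTC and at 19.2, 29.2 and 22.25 CPM in sgp53. Every sgp53 library was above every sgNTC library, with means of 14.6 ± 2.15 and 23.6 ± 5.14 CPM. The log2 fold change of Psmb10 was 0.69 (SE 0.19, edgeR adjusted p = 0.0757; 0.147 with the line as a block), and its within-line differences were 0.17, 1.16 and 0.70. DESeq2 called Psmb10 higher (adjusted p = 0.00832), and over all alternatives the adjusted p ran from 0.00832 to 0.309.

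The inducible subunits were minor beside the constitutive ones they replace. Per kb of exon, Psmb8 stood at 0.290% to 1.20% of Psmb5 in sgNTC and 0.417% to 1.83% in sgp53. Psmb9 stood at 0.219% to 0.232% of Psmb6 in sgNTC and 0.0638% to 0.253% in sgp53. Psmb10 reached 11.6% to 12.9% of Psmb7 in sgNTC and 13.8%, 21.97% and 16.9% in sgp53 lines 1, 2 and 3. Only this last ratio kept the groups apart. In CPM with no exon length, Psmb8 stood at 0.0109 to 0.0453 of Psmb5 in sgNTC and 0.0157 to 0.0689 in sgp53. Psmb10 stood at 0.0579 to 0.0645 of Psmb7 and 0.0688 to 0.109, and Psmb9 reached at most 0.00494 of Psmb6. The gap between Psmb10 and Psmb8 thus depends on the exon lengths, which join all GENCODE transcripts of a gene. The ratios were chosen after the members' values were seen and carry no test.

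**Figure D2:**
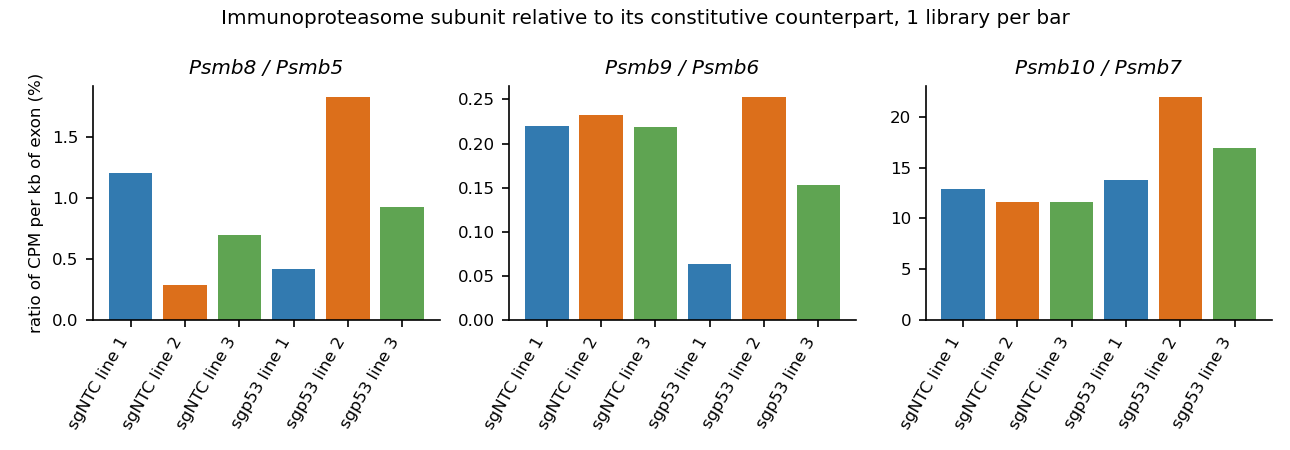
Bars give the ratio of each inducible proteasome subunit to its constitutive counterpart, in percent of CPM per kb of exon, with 1 bar per library and 1 colour per line. Psmb10 runs from 11.6% to 21.97% of Psmb7, whereas Psmb8 reaches at most 1.83% of Psmb5 and Psmb9 at most 0.253% of Psmb6. In CPM with no exon length, the highest ratios are 0.109, 0.0689 and 0.00494 in the same order.

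H2-K1 (chromosome 17, 33996012 to 34000619) and H2-D1 (chromosome 17, 35263094 to 35267497) encode the peptide-binding heavy chains. H2-K1 was at 77.7, 121 and 111 CPM with sgNTC against 103, 180 and 107 CPM in sgp53. The highest library was sgp53 line 2, the groups overlapped, and the means were 103 ± 22.6 and 130.0 ± 43.6 CPM (log2 fold change 0.33 with SE 0.26, adjusted p by edgeR = 0.436). The log2 fold change of H2-K1 was 0.025 without sgp53 line 2 and 0.16 without sgNTC line 1 or without line 2. H2-D1 was at 34.3, 61.2 and 43.5 CPM in sgNTC and at 27.52, 49.5 and 38.6 CPM in sgp53. It was lower in the sgp53 library of each line, by a log2 difference of -0.32, -0.31 and -0.17, and the groups overlapped. The means were 46.3 ± 13.7 and 38.5 ± 10.98 CPM, with a log2 fold change of -0.26 (SE 0.28) and an adjusted p of 0.559 by edgeR (0.121 with the line as a block). The log2 fold change of H2-D1 was -0.012 without sgNTC line 2, -0.073 without sgp53 line 1, -0.44 without sgNTC line 1 and -0.48 without sgp53 line 2. In counts the ratio of H2-K1 to H2-D1 was 2.27, 1.97 and 2.56 in sgNTC and 3.75, 3.64 and 2.76 in sgp53, higher in the sgp53 library of each line (chosen after the values were seen, no test). Of the 50-base stretches in their GENCODE transcripts, 9.63% for H2-K1 and 12.8% for H2-D1 also occur in transcripts of other genes, mostly other class I genes, so reads from these copies may have been split or dropped by the authors' counting.

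B2m (chromosome 2, 122147687 to 122153082), the light chain of every class I molecule, was the most abundant member. It stood at 292, 225 and 239 CPM with sgNTC against 218, 309 and 309.7 CPM in sgp53. Sgp53 line 1 was lowest and the other sgp53 libraries highest, and the whole range was 1.42-fold. The means were 252 ± 35.1 and 279 ± 52.8 CPM (log2 fold change 0.15 with SE 0.16, adjusted p by edgeR = 0.584). For B2m the log2 fold change lay between 0.065 and 0.30 without 1 library and was 0.0020 without line 2, 0.028 without line 3 and 0.41 without line 1.

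Tapbp (chromosome 17, 33919478 to 33929290), tapasin, was lower with sgp53 in line 1 and higher in lines 2 and 3. It was at 65.1, 38.8 and 50.4 CPM with sgNTC against 35.6, 139 and 66.9 CPM in sgp53. Sgp53 line 2 was far above the other 5 libraries, and sgp53 line 1 was lowest. The means were 51.4 ± 13.2 and 80.6 ± 53.2 CPM (log2 fold change 0.65 with SE 0.48, adjusted p by edgeR = 0.406). The log2 fold change was -0.0034 without sgp53 line 2 and was -0.16 without line 2.

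Nlrc5 (chromosome 8, 94434335 to 94527272), which drives class I transcription from the promoter, was at 6.16, 13.1 and 5.93 CPM with sgNTC against 3.69, 5.20 and 6.28 CPM in sgp53. The highest library was sgNTC line 2, and the groups overlapped. The means were 8.39 ± 4.06 and 5.06 ± 1.30 CPM (log2 fold change -0.73 with SE 0.37, adjusted p by edgeR = 0.247). For Nlrc5 the log2 fold change was -0.26 without sgNTC line 2, -0.27 without line 2 and -1.11 without line 3. In line 2, Nlrc5 was lower in sgp53 (log2 difference -1.32), as were Tap1 (-0.75) and H2-D1 (-0.31). The other 7 members were higher there, most of all Psmb8, Tapbp and Psmb10 (2.69, 1.84 and 1.16).

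**Figure D3:**
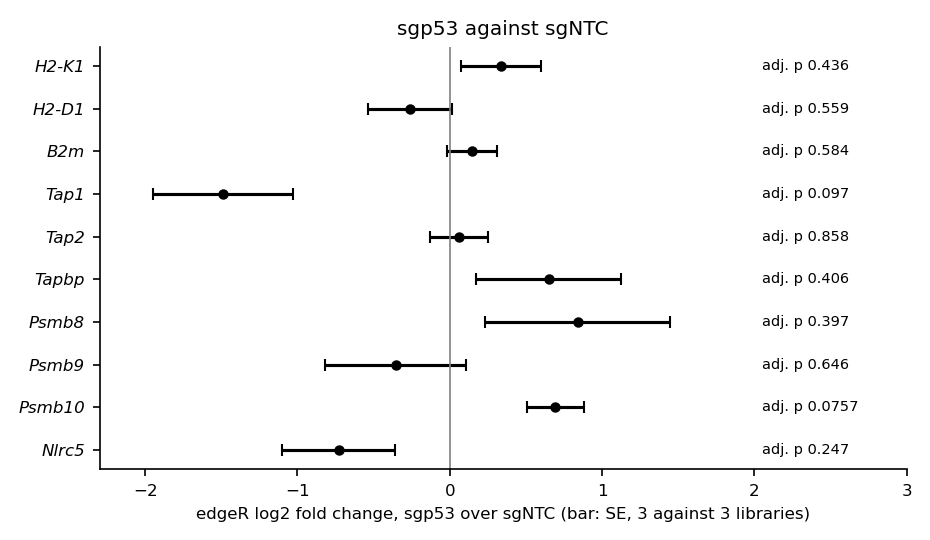
Points are edgeR log2 fold changes of sgp53 over sgNTC for the 10 members and bars are their SE, from 3 against 3 libraries, with the adjusted p at the right. Tap1 (-1.49) and Psmb10 (0.69) lie farthest from 0 in units of their SE, and no adjusted p is under 0.05.

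Levels per kb of exon set the members in an order that spans the pathway. B2m led with 309 CPM per kb, followed by H2-K1 (39.7), Tapbp (18.2), H2-D1 (16.4), Psmb10 (11.2), Tap2 (4.54), Tap1 (3.14), Psmb8 (0.932), Nlrc5 (0.792) and Psmb9 (0.195). These are means over the 6 libraries, on exon lengths that join all GENCODE transcripts of a gene. Neighbours whose library ranges did not overlap were B2m and H2-K1, Psmb10 and Tap2, and Nlrc5 and Psmb9. All other neighbours overlapped in range, so their order is not firm. The light chain was thus above the most abundant heavy chain in every library, and the 2 transporter subunits lay below Tapbp in every library.

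The lines were compared next, because each line gave both libraries of a pair. The test of the line over both guides, with edgeR, called 0 of the 10 members and 0 of 13044 genes (0%). At an unadjusted p under 0.05 there were 2 members, H2-D1 and H2-K1, each with an edgeR adjusted p of 0.968. Limma-voom called 0 members, and DESeq2 called H2-D1 (adjusted p = 0.000183), against 0.618% of all genes in its test, and not H2-K1 (adjusted p = 0.0714). H2-D1 had the same order of lines with either guide: line 2 highest, then line 3, then line 1. H2-K1 was also highest in line 2 and lowest in line 1 with either guide.

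Differences within a line, from 1 library per guide and so with no test, did not run the same way in the 3 lines. The sgp53 library was higher for 2 of 10 members in line 1, 7 in line 2 and 5 in line 3, with median log2 differences of -0.58, 0.52 and 0.01. Over all genes tested these medians were -0.01, 0.0008 and -0.01. Tap1 and H2-D1 were lower in sgp53 in every line, and Psmb10 was higher in every line. B2m, Tapbp and Psmb8 were lower in line 1 and higher in lines 2 and 3.

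**Figure D4:**
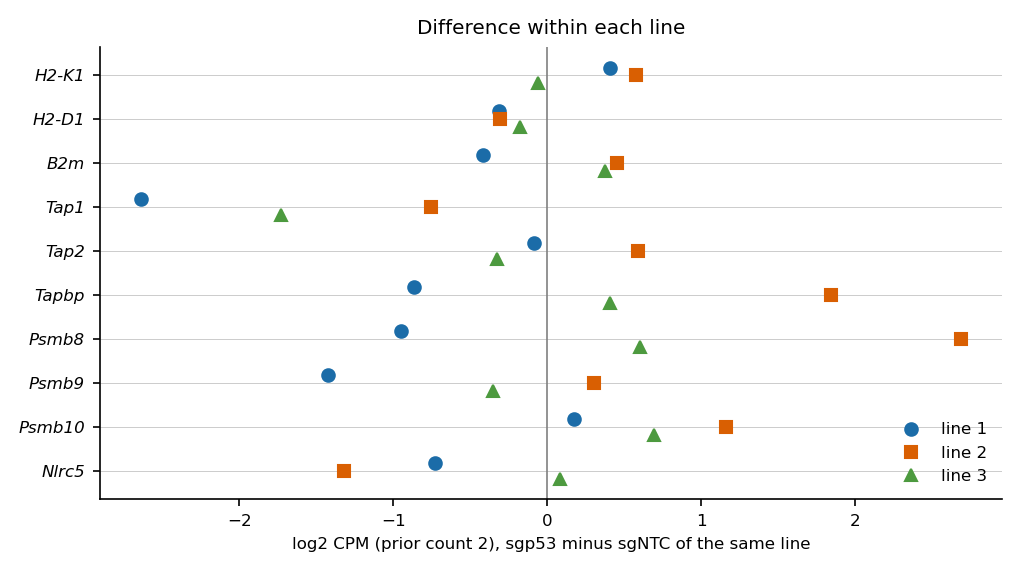
Each point is the log2 CPM of the sgp53 library minus that of the sgNTC library of the same line, for 1 member and 1 line. Psmb8 runs from -0.95 in line 1 to 2.69 in line 2, Tap1 is below 0 in all 3 lines, and Psmb10 is above 0 in all 3.

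A pair of sgp53 libraries held most of the extremes. Sgp53 line 2 was the highest library for 6 of the 10 members (H2-K1, Tap2, Tapbp, Psmb8, Psmb9 and Psmb10), against 12.5% of all tested genes. Sgp53 line 1 was the lowest for 6 (H2-D1, B2m, Tap1, Tapbp, Psmb9 and Nlrc5), against 13.4% of all tested genes. Interferon-stimulated genes had their extremes in the same libraries: of 26 tested, sgp53 line 2 was highest for 23 and sgp53 line 1 lowest for 17. On the log2 CPM scale their median stood at 4.22, 3.15 and 2.92 with sgNTC against 2.31, 5.38 and 4.38 in sgp53. Bst2 (tetherin) was at 109, 39.1 and 52.9 CPM in sgNTC and 30.1, 263 and 46.0 CPM in sgp53, and Isg15, a ubiquitin-like modifier, at 46.0, 46.3 and 29.9 CPM and 21.1, 153 and 75.3 CPM. EdgeR called 0 of the 26, against 6.45% of all tested genes. Without adjustment 1 was under 0.05 (29.0% of all tested genes were). DESeq2 called 1 of the 26, against 17.3% of all genes in its test, and limma-voom 0. The groups did not overlap in 1 of the 26 (3.85%), against 36.8% of all tested genes. The median log2 fold change of the 26, 1.00, was 0.008 without sgp53 line 2. The part of the interferon genes' shift in the class I values was not tested.

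**Figure D5:**
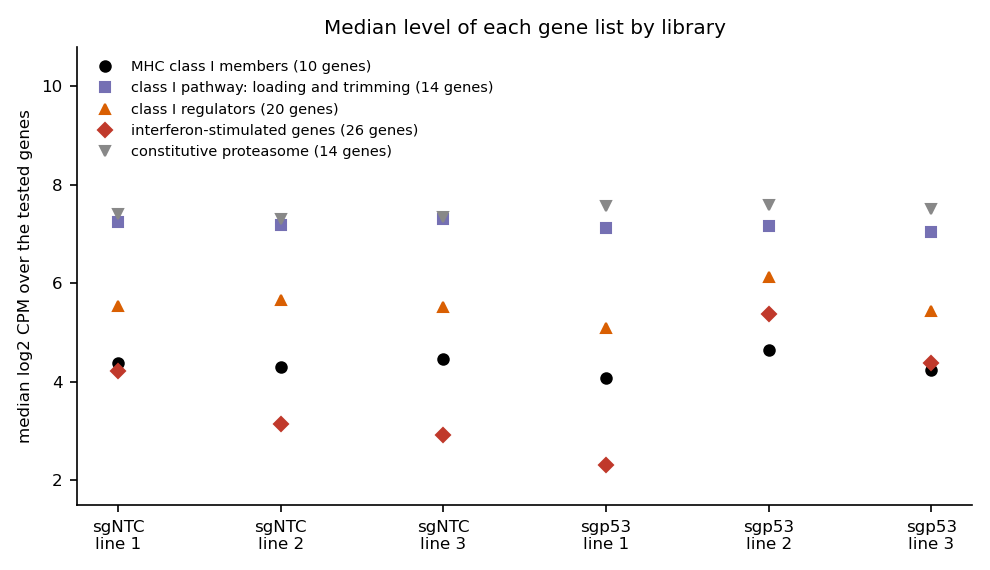
Points are the median log2 CPM over the tested genes of each list, by library. The interferon-stimulated genes span 2.31 to 5.38 over the sgp53 libraries, the 10 class I members 4.09 to 4.65, and the constitutive proteasome 7.50 to 7.58.

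Likeness to the members was ranked over 12045 other genes by Pearson's r between a gene's log2 CPM and the mean of the members' centred log2 CPM, over the same 6 libraries. Among the 5 closest were Cep44, a centrosomal protein (r = 0.995), Trim25, a ubiquitin ligase (0.992), Auh, a mitochondrial hydratase (0.982), and Oas1a, an interferon-induced synthetase (0.973). Their levels differed greatly in range: Oas1a ran from 3.72 CPM in sgp53 line 1 to 32.8 CPM in sgp53 line 2, and Cep44 from 18.8 to 23.7 CPM in the same libraries. Within the list, Psmb9 followed the mean of the other 9 most closely (r = 0.902) and Nlrc5 least (0.132). With 6 points from shared libraries these values are descriptions.

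Other genes of the pathway were taken from lists. Of 18 other class I or class I-like heavy chain genes, 9 were tested and 0 called by edgeR, against 6.45% of all tested genes. At an unadjusted p under 0.05 there was 1 (29.0% of all tested genes were). DESeq2 called 1, against 17.3% of all genes in its test, and limma-voom 0. The list's median log2 fold change was 0.04. H2-Q4, a nonclassical chain, was at 19.0, 33.7 and 22.99 CPM with sgNTC against 16.4, 40.9 and 20.6 CPM in sgp53. H2-T23, the Qa-1 chain that binds NK receptors, was at 8.63, 8.41 and 6.33 CPM and at 3.76, 21.7 and 7.97 CPM. H2-M3, which presents formylated peptides, was at 5.98, 6.99 and 5.52 CPM and at 4.92, 5.67 and 3.54 CPM. In H2-Q4 and H2-T23, as in 6 members, sgp53 line 2 was highest. H2-Q6, H2-Q7, H2-Q8 and H2-M2 had 0 counts in every library, and 32.0% of the 50-base stretches of H2-Q6 and 26.4% of those of H2-Q7 also occur in other genes.

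Of 14 genes of peptide loading, trimming and import, edgeR called Sec61b higher and 0 lower, and the list's median log2 fold change was 0.04. Over all tested genes edgeR called 6.45%. DESeq2 called 4 of the 14, against 17.3% of all genes in its test, and limma-voom 1. Without adjustment 4 were under 0.05 (29.0% of all tested genes were). The groups did not overlap in 6 (42.9%), against 36.8% of all tested genes. Sec61b, a subunit of the translocation channel, rose from 47.2, 44.7 and 50.7 CPM with sgNTC to 64.3, 61.7 and 59.8 CPM in sgp53 (log2 fold change 0.38 with SE 0.07, adjusted p by edgeR = 0.0306). The call was lost with the line as a block (edgeR adjusted p = 0.0821) and on leaving out any 1 library or line (0.0613 to 0.175). The chaperone calreticulin (Calr) was at 861 to 999 CPM in sgNTC and 873 to 1112 CPM in sgp53, and Pdia3, the disulfide isomerase of the loading complex, at 804 to 833 and 749 to 789 CPM. Hspa5, the main chaperone of the endoplasmic reticulum, was at 854 to 1060 and 837 to 1386 CPM.

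In the constitutive proteasome, which makes the peptide supply in cells without interferon, edgeR called 0 of 14 subunits (6.45% of all tested genes). Without adjustment 10 were under 0.05 (29.0% of all tested genes were), and 7 were called by DESeq2 (17.3% of all genes in its test) and 0 by limma-voom. All 14 log2 fold changes were positive with TMM, RLE and DESeq2 scaling, with a median of 0.17. Without sgp53 line 2, 13 were positive. The groups did not overlap in 10 of the 14, against 36.8% of all tested genes. Psmb7 was at 225 to 264 CPM in sgNTC and 264 to 279.6 CPM in sgp53, Psmb4 at 223 to 236 and 249 to 254 CPM, and Psma3 at 196 to 209.9 and 202 to 219 CPM.

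Of 20 tested regulators of class I transcription, edgeR called 0, against 6.45% of all tested genes. Without adjustment 6 were under 0.05, a share near the 29.0% of all tested genes. DESeq2 called 2 of the 20, against 17.3% of all genes in its test, and limma-voom 0. The median log2 fold change of the 20 was 0.08. Rela, the p65 subunit of NF-kappaB, was at 122 to 170 CPM in sgNTC and 118 to 127 CPM in sgp53, Nfkb1 at 107 to 126 and 111 to 122 CPM, and Atf1 at 105 to 116 and 119 to 142 CPM. Of 12 tested genes of interferon receptors and signalling, edgeR called 0 (6.45% of all tested genes were called). Without adjustment 6 were under 0.05 (29.0% of all tested genes were). DESeq2 called 1 of the 12, against 17.3% of all genes in its test, and limma-voom 0. Jak1 was at 194 to 212 CPM in sgNTC and 205 to 249 CPM in sgp53, Ifnar1 at 94.2 to 108 and 103 to 109.8 CPM, and Ifngr2 at 45.6 to 70.3 and 66.6 to 102 CPM. Receptors for both interferon types thus had RNA in every library. Interferon genes themselves were at or near 0 counts: Ifng, Ifna1, Ifna2 and Ifnk had 0 in every library, and Ifnb1 had 1 count in sgp53 line 2 and 2 in sgp53 line 3. Of 14 listed interferon ligands and sensors 7 were tested and edgeR called 0 (6.45% of all tested genes were called). At an unadjusted p under 0.05 there was 1 (29.0% of all tested genes were). DESeq2 called 0 of the 7, against 17.3% of all genes in its test, and limma-voom 0. Ddx58, which makes RIG-I, was at 94.8, 49.4 and 53.6 CPM with sgNTC against 31.1, 146 and 75.1 CPM in sgp53, and Ifih1 at 145, 203 and 138 and 54.4, 166 and 133 CPM. Tmem173, which makes STING, was at 49.7 to 74.9 CPM in sgNTC and 46.8 to 56.6 CPM in sgp53.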

How the data were processed

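The authors' deposited values are unnormalized read counts for each gene symbol and library, as their whole numbers and differing totals show. CASAVA 1.8, STAR, DESeq2 and mm10 appear, without roles, in the submitters' processing notes; counter, annotation and strand setting were not given in the sources used here. The main test was edgeR's quasi-likelihood test (edgeR 4.0.16 in R 4.3.3; TMM, filterByExpr, 13044 genes tested), with Benjamini-Hochberg adjustment over all of them and calls under 0.05; DESeq2 1.42.0 and limma-voom (limma 3.58.1) were alternatives. The SE was taken from the coefficient and its F value. Within-line differences are of log2 CPM with a prior count of 2. The design gave 3 against 3 libraries and 4 residual degrees of freedom (2 with the line as a block). The line numbers pair the libraries, since both libraries of a number share a line; their deviations correlated at 0.089, 0.0018 and -0.027 in lines 1, 2 and 3. Chi-square per degree of freedom between libraries of a group was 21.8 to 58.0, so each counted as 1 replicate. Exon lengths are from GENCODE M21 and coordinates and promoters from RefSeq, both on GRCm38. The scripts were tested on simulated data. Named genes are the 10 members, p53 and 3 of its targets, for each list every called gene (at most 5) and the 3 of highest mean CPM, and the 5 genes most like the members; Psmb5 and Psmb6 were added as counterparts, and list genes at 0 counts, Ifnb1, Ifnk, Ifng, Ifna1 and Ifna2 after their values were seen. Values of some genes that this rule takes are not reported here. The members and lists were chosen with earlier results of these data known.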

Additional observations from a re-analysis of the deposited data

Results flagged for a closer look

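Psmb8 and Tapbp were singled out because their sgp53 and sgNTC libraries differed by at least 0.5 on the log2 scale in opposite directions in different lines. For Psmb8 the log2 difference was -0.95 in line 1 and 2.69 in line 2, which is 3.64 apart. Its difference in line 3 was 0.60, which is 1.55 from line 1. For Tapbp it was -0.87 in line 1 and 1.84 in line 2, which is 2.71 apart. Each line has 1 library per guide, so the difference between lines was not tested.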

How the results depend on the processing

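The count of members called was 0 with edgeR and stayed 0 with limma-voom, RLE scaling, no filter on low counts and the line as a block; DESeq2 called 2, and leaving out single libraries or lines gave 0 to 1. DESeq2 also called 1 member between lines, where the other alternatives gave 0. Of the listed pathway genes edgeR called 3 (Sec61b, Cd80 and Ulbp1); DESeq2 called 21 (19 that edgeR tested and the interferon-stimulated genes Iigp1 and Mx1, which the filter on low counts removed, named after their values were seen), limma-voom 1 and edgeR with the line as a block 1, and leaving out libraries or lines gave 0 to 2. Over all genes edgeR called 841, and 311 with the line as a block. With the block no member's call changed. Signs turned for Tap2 without sgNTC line 2 (-0.042), sgp53 line 2 (-0.114) or line 2 (-0.209), for Tapbp without sgp53 line 2 (-0.0034) or line 2 (-0.162), for Psmb8 without line 2 (-0.125) and for Psmb9 without line 1 (0.027); the cause was not tested. Over the fits that leave out a library or line the log2 fold change ran from -0.209 to 0.275 for Tap2, -0.162 to 1.21 for Tapbp, -0.125 to 1.66 for Psmb8 and -0.885 to 0.027 for Psmb9. The other 6 members kept their sign in all 14 alternatives, over which the log2 fold change ran from 0.025 to 0.52 for H2-K1, -0.48 to -0.012 for H2-D1, 0.0020 to 0.41 for B2m, -2.18 to -1.13 for Tap1, 0.44 to 0.95 for Psmb10 and -1.11 to -0.26 for Nlrc5. The within-line medians, with RLE scaling added after the data were seen, were -0.57, 0.52 and 0.02. With 8 to 36 counts, Psmb9 is limited by depth.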

Other observations

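Of 13 listed ligands that T and NK cells read beside class I, 7 were tested. EdgeR called 2 lower and 0 higher, against 6.45% of all tested genes called. DESeq2 called 3, against 17.3% of all genes in its test, and limma-voom 0. Without adjustment 6 were under 0.05 (29.0% of all tested genes were). The groups did not overlap in 6 of the 7, against 36.8% of all tested genes. All 7 log2 fold changes were negative with TMM, RLE and DESeq2 scaling. Ulbp1, a ligand of the activating NK receptor NKG2D, fell from 43.6, 87.0 and 31.2 CPM in sgNTC lines 1, 2 and 3 to 15.5, 14.7 and 15.4 CPM in sgp53 (log2 fold change -1.83, SE 0.37, adjusted p = 0.0412 by edgeR). This call was lost with the line as a block (edgeR adjusted p = 0.0762), with limma-voom (0.0685), without sgNTC line 1 or any 1 sgp53 library (0.0542 to 0.127) and without any 1 line (0.0942 to 0.161). The T cell costimulator Cd80 fell from 24.8, 9.13 and 27.0 CPM to 0.615, 0.0556 and 0.175 CPM (log2 fold change -6.20, SE 0.80, adjusted p = 0.0138 by edgeR). This call was lost with limma-voom (adjusted p = 0.0552), without sgNTC line 3 (0.0627), without line 1 (0.0697) and without line 3 (0.15). H60b, another NKG2D ligand, was at 11.4 to 14.1 CPM in sgNTC and 5.89 to 11.7 CPM in sgp53.

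Of 7 listed class II genes 3 were tested and edgeR called 0 (6.45% of all tested genes were called). At an unadjusted p under 0.05 there was 1 (29.0% of all tested genes were). DESeq2 called 0 of the 3, against 17.3% of all genes in its test, and limma-voom 0. H2-Ab1 was at 5.20 to 13.9 CPM in sgNTC and 4.67 to 10.2 CPM in sgp53, while H2-DMa and H2-DMb1 stayed under 4 CPM in every library.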
